A study of Homo sapiens with 3 samples.

Results

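Mt-CFX was compared with its vehicle in MDA-MB-231, a long-established cell line from a human breast tumour without hormone receptors, used as a model of invasive triple-negative disease. The comparison uses 2 of the 3 arrays of the study: cells kept for 72 h with 10 µM Mt-CFX, and cells kept for 72 h with 1% DMSO. The third array, from cells kept for 72 h with 10 µM CFX, is given beside them for the genes named. The series title speaks of ciprofloxacin, a fluoroquinolone antibiotic that acts on bacterial type II topoisomerases, while Mt-CFX is known here by its code name alone. A solvent content is labelled for the control only, so an effect of the compound and one of a different solvent content cannot be told apart.

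Each group was 1 culture on 1 array, so no value below has a replicate error, no test could be made, and the sizes describe these arrays. Values were log2 expression levels per probe set. A named gene was represented by its probe set with the highest mean of the 3 arrays, and was kept when at least 1 array reached the median of all probe set values, 3.89, called the floor here. This kept 10126 of 14884 named genes, among them 8868 protein-coding genes, 563 long non-coding RNA genes and 425 microRNA genes. RNA came from whole dishes, so fewer cells that express a gene and less RNA per cell cannot be told apart.

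The cell line was checked against its markers. The mesenchymal genes VIM, AXL, MSN, ZEB1 and SNAI2 lay well above the floor on both arrays, and VIM was at 9.17 on each. PGR, the progesterone receptor gene, was at 2.39 on both arrays and ESR1, the oestrogen receptor gene, at 3.81, under the floor. TWIST1 was also under the floor, at 3.06. The line was not without epithelial transcripts, since KRT18 was at 8.36, KRT8 at 5.83 and GATA3 at 5.52 on both arrays, whereas GRHL2 was under the floor. PECAM1 and ALB, markers of endothelial and liver cells, were under the floor on both arrays.

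With Mt-CFX, 159 genes were higher than in the vehicle control by 1.5-fold or more, which is 1.57% of the genes kept, and 129 were lower, which is 1.27%. At 2-fold or more 37 genes were higher (0.365%) and 26 lower (0.257%). To any extent, 2464 of the 10126 genes kept were higher and 2310 lower. Of the genes kept, 52.9% had exactly the same value on both arrays, so the median difference over all genes kept was 0.00 and the mean 0.0056 log2. Genes with a higher mean level differed more often: with the genes kept split by mean level into 4 groups of equal size, 48 genes of 1.5-fold or more lay in the lowest group, 55 and 77 in the next ones, and 108 in the highest. In 25 of the 288 genes of 1.5-fold or more, 1 of the 2 arrays was under the floor, and these are named as such below because the size of their difference is uncertain. With CFX, 20 genes were higher (0.198%) and 19 lower (0.188%) by 1.5-fold or more against the same control array.

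**Figure D1:**
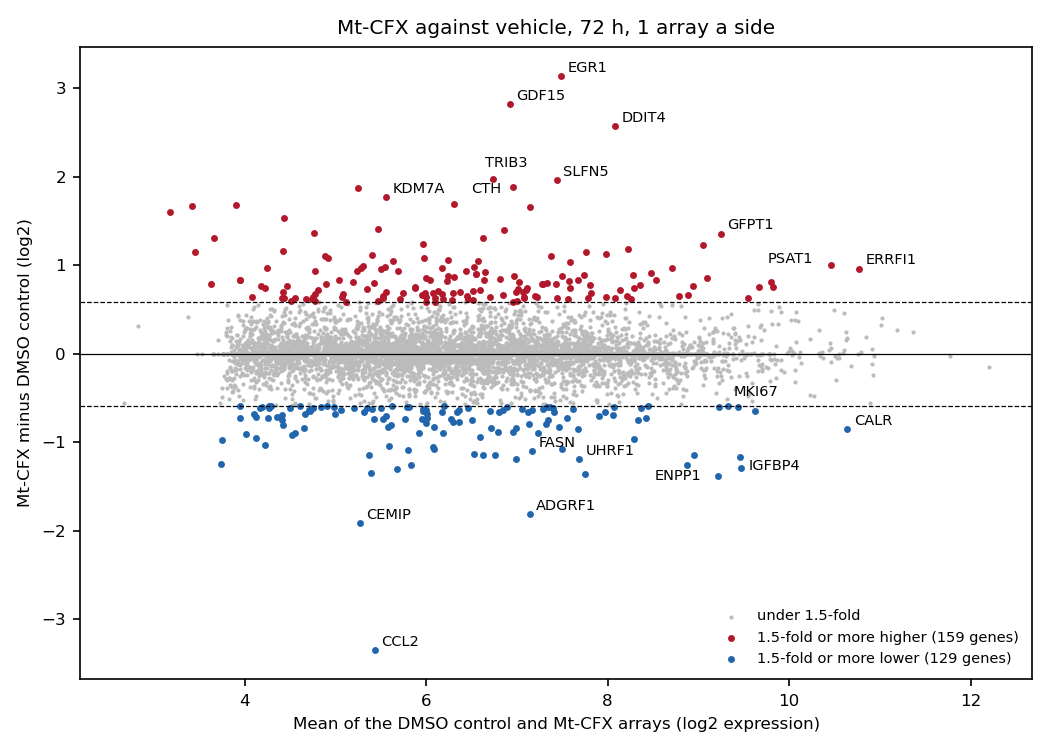
Each point is 1 of the 10126 genes kept, with the mean of the DMSO control and Mt-CFX arrays (log2 expression) on the x axis and Mt-CFX minus DMSO control (log2) on the y axis. Red points are the 159 genes and blue points the 129 genes at or beyond the dashed lines of 1.5-fold; EGR1 at 3.14 and CCL2 at −3.35 are the extremes, and there is 1 array a side.

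As background, the integrated stress response joins several stress-sensing kinases that phosphorylate the translation initiation factor eIF2. General protein synthesis then slows while the transcription factor ATF4 is made. ATF4 pairs with other factors of the C/EBP and AP-1 type at composite promoter elements, and turns on genes of amino acid synthesis, tRNA charging and growth restraint. Mitochondrial stress, amino acid shortage and stress of the endoplasmic reticulum all feed into it.

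Genes of this response were among the highest with Mt-CFX. TRIB3, a pseudokinase that feeds back on the response, was at 5.76 in the control, 5.86 with CFX and 7.73 with Mt-CFX, a 3.92-fold difference from the control. DDIT4, an inhibitor of the growth kinase complex mTORC1, was at 6.79, 7.10 and 9.37 on the same arrays, and SESN2, another inhibitor of it, at 6.32, 6.15 and 7.97. The Mt-CFX array was the high one for all 3 genes, while the CFX array lay near the control or under it. ATF4 itself was at 8.12, 8.36 and 8.95. ATF3, an induced partner factor, was at 4.08 on both other arrays and at 4.77 with Mt-CFX. DDIT3, which encodes the partner factor CHOP, was at 3.06 on both other arrays, under the floor, and at 4.75 with Mt-CFX.

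Of 17 regulators of the response kept, 7 were higher to any extent, 3 lower and 7 equal, and 5 differed by 1.5-fold or more, 4 of them upwards, beside 1.57% of all genes. The lower one was TRIB2, a relative of TRIB3, which was at 6.63 in the control and 5.55 with Mt-CFX and whose other probe set was equal at 5.21 on both arrays. Among the eIF2 kinase genes kept, EIF2AK1 and EIF2AK2 differed by −0.01 and 0.07 log2, and EIF2AK3 did not reach 1.5-fold. GTPBP2, which takes part in the rescue of stalled ribosomes, was higher by 1.06 log2, from 5.71 to 6.76. The median of the 17 regulators was 0.00 and their mean 0.26 log2, carried by the 4 genes named above.

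Enzymes that make amino acids followed. Of 24 genes of amino acid and one-carbon metabolism kept, 12 were higher, 6 lower and 6 equal; 5 were higher by 1.5-fold or more, 20.8% beside 1.57% of all genes, none was lower by that much, and the median was 0.02 log2. CTH, which makes cysteine, was at 6.01 in the control, 6.68 with CFX and 7.89 with Mt-CFX, a 3.70-fold difference from the control. ASNS, the asparagine synthetase gene, was at 7.64, 7.81 and 8.82. PSAT1 of the serine pathway was at 9.95, 10.35 and 10.96, and the other enzymes of that pathway, PHGDH and PSPH, were higher by 0.62 and 0.48 log2. All 3 enzymes of serine synthesis from glycolysis were thus higher. ASS1, which makes argininosuccinate on the way to arginine, was higher by 0.79 log2, and PCK2, the mitochondrial enzyme that makes phosphoenolpyruvate, by 0.90. SHMT2, which passes the one-carbon unit of serine on in mitochondria, was higher by 0.31, whereas MTR, the methionine synthase gene, was at −0.36.

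The cytosolic aminoacyl-tRNA synthetases, which load amino acids onto tRNAs, had the highest mean of the lists with 10 or more members kept, 0.38 log2, and a median of 0.47. Of 19 kept, 12 were higher, 2 lower and 5 equal, and 6 were higher by 1.5-fold or more, 31.6% beside 1.57% of all genes. SARS1, for serine, was at 8.22 in the control, 8.36 with CFX and 9.19 with Mt-CFX. GARS1, for glycine, was at 9.45, 9.69 and 10.20. YARS1, for tyrosine, was at 6.21, 6.57 and 6.82, so that for this gene the CFX array lay closer to Mt-CFX than to the control. EPRS1, IARS1, NARS1 and AARS1 were just short of 1.5-fold, at 0.52, 0.50, 0.49 and 0.47 log2. For WARS1, the tryptophan enzyme, the probe set used differed by 1.05 log2 and the other by 0.00.

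**Figure D2:**
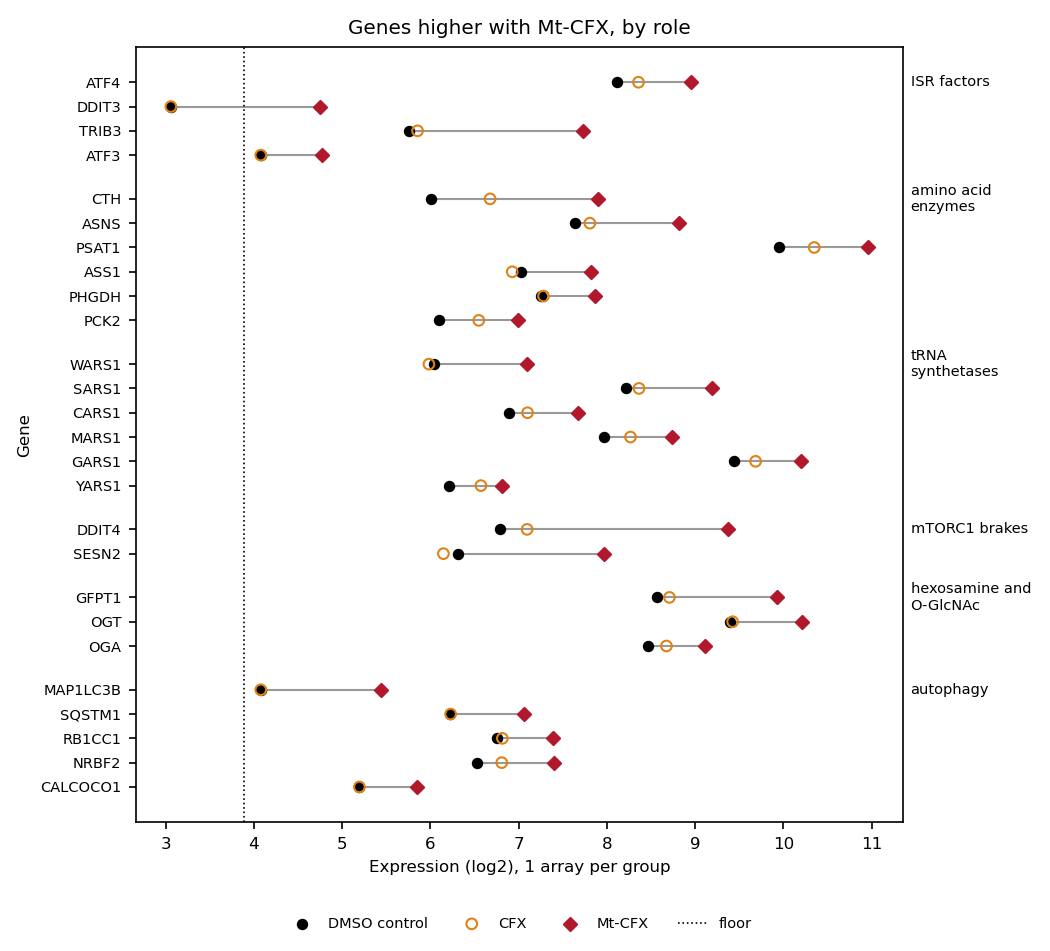
Levels (log2 expression, x axis) of genes higher with Mt-CFX, grouped by role on the y axis; black points are the DMSO control array, open orange circles CFX and red diamonds Mt-CFX, 1 array per group, and the dotted line is the floor of 3.89. The red diamond is the rightmost point for each gene. The CFX circle lies furthest above the control, between it and Mt-CFX, for CTH, PCK2, PSAT1 and YARS1.

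The promoters of these genes were searched for the element that ATF4 is known to bind. This C/EBP-ATF response element was searched as the letters TGATGNAA on both strands, from 250 bases before to 50 bases after the start site given by RefSeq (GRCh38.p14), in the 7341 protein-coding genes kept that matched a promoter by gene. A gene with several listed start sites counted when any of its windows held a match. The element was found in 195 of these genes, 2.66%. It was found in 13 of 108 matched protein-coding genes that were 1.5-fold or more higher, 12.0%, and in 3 of 89 that were 1.5-fold or more lower, 3.37%. It was found in 2 of 15 regulators of the response, ATF3 and JDP2, 13.3%, of which JDP2 was equal on both arrays. It was found in 2 of 19 amino acid and one-carbon enzymes, ASNS and MTHFD1L, 10.5%, so most of the genes of these lists had no match. Of the 19 synthetase genes kept 15 had a promoter to search, and it was found in 7 of these, 46.7%. Those 7 genes, AARS1, CARS1, GARS1, IARS1, MARS1, NARS1 and TARS1, were all higher with Mt-CFX, with a median of 0.50 log2. Of the 8 synthetase genes with no match, 3 were higher and 1 was lower, with a median of 0.00. WARS1, with the largest difference of the synthetases at 1.05 log2, was searched and had no match. Of the 6 synthetase genes 1.5-fold or more higher, CARS1, GARS1 and MARS1 held a match, while WARS1, SARS1 and YARS1 were not among the matches. A match describes the letters and is neither a bound site nor a cause, and the list was looked at because its values were known. The windows below show the match in capitals with 20 bases on either side, on the strand of the gene. That of IARS1 stops at the start site, and those of CARS1 and MARS1 stop at the end of the match, which crosses it.

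ASNS, chr7:97872449-97872496, minus strand: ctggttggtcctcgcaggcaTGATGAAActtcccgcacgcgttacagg

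ATF3, chr1:212565196-212565243, plus strand: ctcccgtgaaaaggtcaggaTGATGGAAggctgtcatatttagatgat

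AARS1, chr16:70289666-70289713, minus strand: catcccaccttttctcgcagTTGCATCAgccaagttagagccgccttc

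IARS1, chr9:92293698-92293730, minus strand: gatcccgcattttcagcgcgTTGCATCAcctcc

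GARS1, chr7:30594825-30594872, plus strand: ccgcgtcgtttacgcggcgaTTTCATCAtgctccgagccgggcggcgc

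MARS1, chr12:57488044-57488071, plus strand: aagcgggaggccggttccggTTGCATCA

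CARS1, chr11:3057418-3057445, minus strand: cgcgacttccggggcggcggTTGCATCA

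In ASNS and ATF3 the element reads forward, and in the 5 synthetase genes it reads on the opposite strand. The match begins 68 bases before the start site in ASNS and 191 before it in ATF3. In IARS1 it begins 13 bases before it, in MARS1 4 and in CARS1 2, while in AARS1 it begins 187 bases before it. No overlap of this element with any of the other elements searched was found in these promoters.

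The hexosamine pathway, which turns fructose 6-phosphate and glutamine into the sugar donor for glycosylation, was also higher. GFPT1, its first and rate-limiting enzyme, was at 8.57 in the control, 8.71 with CFX and 9.92 with Mt-CFX, a 2.56-fold difference. OGT, which attaches the sugar to proteins inside the cell, was at 9.40, 9.43 and 10.21, and OGA, which removes it, at 8.46, 8.68 and 9.12. So the writer and the eraser of the same protein modification were both higher. GNPNAT1 and UAP1, later enzymes of the route, were higher by 0.41 and 0.40 log2, and GNPDA2, which works in the opposite direction to GFPT1, by 0.57. Of the 9 genes of this group kept, 6 were higher, 1 lower and 2 equal, and the median was 0.41 log2. Higher by 1.5-fold or more were 3, 33.3% beside 1.57% of all genes. The group was put together after values were seen.

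Autophagy genes, whose products wrap and deliver cell contents to lysosomes, were higher in part. MAP1LC3B, which coats the autophagosome membrane, was at 4.08 in the control and with CFX and at 5.44 with Mt-CFX. The cargo receptor gene SQSTM1 was at 6.22, 6.23 and 7.06, and RB1CC1, a scaffold of the initiating kinase complex, at 6.76, 6.82 and 7.40. In all 3 the CFX array lay within 0.06 log2 of the control. GABARAPL1 was higher by 0.57, the receptors TAX1BP1 and CALCOCO2 by 0.56 and 0.43, and ATG14 by 0.48. Outside the list, NRBF2, a subunit of the same lipid kinase complex as ATG14, was higher by 0.87, and CALCOCO1 by 0.65. On the low side MITF, a factor for lysosomal genes, was at −0.59 and the protease gene CTSD at −0.45. Of 40 genes kept 16 were higher, 9 lower and 15 equal, with a median of 0.00. At 1.5-fold or more 3 were higher, 7.5% beside 1.57% of all genes, and 1 was lower, 2.5% beside 1.27%.

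Of 20 genes of the NRF2 and glutathione list kept, 8 were higher, 1 lower and 11 equal. At 1.5-fold or more 2 were higher, 10% beside 1.57% of all genes. TXNRD1, which reduces thioredoxin, was at 7.42 in the control, 7.56 with CFX and 8.54 with Mt-CFX. NFE2L2, the gene of NRF2, was at 6.77, 7.02 and 7.39, and MAFG, its small partner factor, was higher by 0.41 log2. Several further enzymes were higher without belonging to a list. NAMPT, which makes the NAD precursor, was higher by 0.86 log2, with 0.35 and 0.51 at further probe sets. MOCOS, which activates molybdenum enzymes, was higher by 0.89, ACSS3, an acyl-CoA synthetase, by 0.73 and ALDH2, the mitochondrial aldehyde dehydrogenase, by 0.69. UPP1, a uridine phosphorylase, was at 4.33 in the control and 5.43 with Mt-CFX. TPMT, a thiopurine methyltransferase, was higher by 0.60. The metallothionein genes MT1F, MT1X and MT2A, which bind metal ions, were each higher by 0.39 to 0.40, while MT1E differed by 0.02.

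Several genes of ubiquitin transfer were higher one by one, while most members of the families below were equal. Of 49 F-box genes kept, which encode substrate receptors of ubiquitin ligases, 18 were higher, 3 lower and 28 equal, with a median of 0.00. FBXL13 was higher by 0.93 log2, FBXO48 by 0.70, FBXO32 by 0.64 and FBXO4 by 0.61, and none of the 49 was lower by 1.5-fold or more. This gives 8.16% of the family against 1.57% of all genes, for a family chosen after values were seen. Other ligase genes were RBCK1, of the linear ubiquitin complex, at 7.07 in the control, 7.04 with CFX and 8.11 with Mt-CFX, LONRF1 (higher by 1.09), RNF41 (0.81) and TRIM25 (0.77). Of 42 TRIM genes kept 12 were higher, 3 lower and 27 equal. TRIM25 alone reached 1.5-fold, 2.38% beside 1.57% of all genes, and TRIM28 was the lowest at −0.44. On the low side the ligase gene HERC3 was at −0.68 and RNF145, which acts in sterol control, at −0.62.

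Growth signalling and immediate early genes were mixed in direction. EGR1, a zinc finger factor induced by MAP kinases, was at 5.92 in the control, 6.17 with CFX and 9.06 with Mt-CFX, an 8.82-fold difference. At its other probe set EGR1 was higher by 1.64 log2, from a control level of 3.53, under the floor. ERRFI1, which inhibits the EGF receptor, was at 10.29, 10.58 and 11.25, and SOS2, which activates RAS, at 7.30, 7.74 and 8.19. Of 20 immediate early genes kept 14 were higher, 3 lower and 3 equal. Higher by 1.5-fold or more were 4, 20% beside 1.57% of all genes. IER2 was at 5.63 on both other arrays and 6.46 with Mt-CFX, and JUNB at 5.77, 5.67 and 6.48. The survival gene MCL1 was higher by 0.57 and IER3 by 0.47, while JUN and FOSL2 were at −0.55 and −0.41. Among feedback genes of the MAP kinases DUSP5 was higher by 0.58 and ETV5 by 0.51, while DUSP4 and DUSP7 were at −0.45 and −0.33. Of these 21 genes 11 were higher, 4 lower and 6 equal.

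The CArG box, to which serum response factor binds, was found on either strand in 121 of the 7341 genes, 1.65%, in 8 of the 108 higher genes, 7.41%, and in 1 of the 89 lower genes, 1.12%. Of 13 immediate early genes with a promoter, 2 held a match, EGR1 and SRF. SRF, whose promoter also holds 2 CArG boxes, was equal on both arrays. A match is neither a bound site nor a cause. Some CArG box matches overlap those of the CCAAT box, in 15 genes. The EGR1 promoter is shown because this gene had the highest difference of all genes kept. It holds 2 CArG boxes, whose first bases lie 105 and 83 bases before the start site. Capitals mark the second, and the end of the first is the lower case run at the left edge.

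EGR1, chr5:138465376-138465425, plus strand: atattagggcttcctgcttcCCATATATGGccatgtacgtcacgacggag

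Other transcription and chromatin genes were higher one by one. KDM7A, a histone demethylase, was at 4.68 in the control, 5.11 with CFX and 6.45 with Mt-CFX, and the demethylase gene KDM6B was at 0.58 log2, just under 1.5-fold. Of 48 genes of histone methylation kept, 13 were higher, 14 lower and 21 equal. KDM7A was the one gene of this list at 1.5-fold or more, 2.08% beside 2.84% of all genes. MYC was higher by 0.88 log2 and MXD1, a repressor that competes with MYC for its partner, by 0.87. HOXB9 was higher by 0.92, HOXD12 by 0.76, KLF7 by 0.69, EPAS1, the hypoxia factor HIF-2 alpha, by 0.67, LMO4 by 0.61 and the homeobox gene MKX by 0.60. Of 328 genes with ZNF symbols kept 102 were higher, 42 lower and 184 equal. ZNF485, ZNF697 and ZNF766 of these were higher by 1.5-fold or more, at 0.68, 0.67 and 0.64, which is 0.915% beside 1.57% of all genes. The lowest was ZNF618 at −0.48. EID3, linked to SMC5/6 complexes, was at 5.98, 5.92 and 7.28.

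SLFN5, a Schlafen gene known as interferon-inducible, was at 6.46 in the control, 6.79 with CFX and 8.42 with Mt-CFX. It was alone among interferon response genes in being 1.5-fold or more higher, 3.70% of those kept beside 1.57% of all genes. Of 27 kept 4 were higher, 7 lower and 16 equal, with RIGI at −0.57, IFIT1 at −0.21 and IFIT3 at −0.17 log2. GDF15, the secreted stress cytokine, was at 5.51, 5.83 and 8.33, a 7.09-fold difference. PMAIP1, which encodes the pro-apoptotic protein NOXA, was at 6.39, 6.62 and 7.23, and RRM2B, a ribonucleotide reductase subunit that p53 induces, was higher by 0.53. The p53 target list, which holds PMAIP1, RRM2B and SESN2, did not share a direction: of 14 kept 6 were higher, 4 lower and 4 equal, with SFN at −0.69 and PLK2 at −0.41. MDA-MB-231 carries mutant p53, as background.

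MicroRNA genes, whose short products bind matching sites in messenger RNAs through the seed, bases 2 to 8, made up 33 of the 288 genes of 1.5-fold or more. Of the 425 kept, 7.76% differed by that size, 19 upwards and 14 downwards, beside 2.71% of protein-coding genes. A whole-transcript array does not separate the mature microRNA from its precursor or host transcript. The mature sequences below (RefSeq, GRCh38.p14) belong to higher genes that sit together in clusters or share a seed, and to MIR21, which does neither and for which the compounds lay on opposite sides of the control. The seed is in capitals.

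miR-503-5p (MIR503): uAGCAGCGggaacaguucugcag

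miR-424-5p (MIR424): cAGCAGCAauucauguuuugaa

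miR-100-5p (MIR100): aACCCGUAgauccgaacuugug

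let-7a-5p (MIRLET7A2): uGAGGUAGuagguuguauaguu

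miR-125b-5p (MIR125B1): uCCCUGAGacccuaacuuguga

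miR-29a-3p (MIR29A): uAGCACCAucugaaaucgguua

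miR-29c-3p (MIR29C): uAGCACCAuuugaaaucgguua

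miR-21-5p (MIR21): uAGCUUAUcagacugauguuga

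MIR503 and MIR424 lie on chromosome X with 250 bases between their mature sequences, and their seeds share 6 of 7 bases, the run AGCAGC. MIR503 was at 5.46 in the control, 5.53 with CFX and 7.16 with Mt-CFX, and MIR424 at 5.82, 5.82 and 6.64. Both were highest with Mt-CFX, and the CFX array lay within 0.07 log2 of the control. MIR542, MIR450A1, MIR450A2 and MIR450B of the same cluster were under the floor on all 3 arrays. MIR15A and MIR16-2, other microRNAs of the miR-15 and miR-16 family, differed by 0.09 and 0.04 log2.

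MIR100, MIRLET7A2 and MIR125B1 lie on chromosome 11 and are processed from the long transcript MIR100HG. MIR100 was at 4.84 in the control, 4.59 with CFX and 5.95 with Mt-CFX. MIRLET7A2 was at 5.71, 5.95 and 6.29, and MIR125B1 at 4.24, 3.99 and 4.87. The Mt-CFX array was the highest for all 3, whereas CFX lay under the control for MIR100 and MIR125B1. The probe set of MIR100HG was equal at 5.07 on the 3 arrays. Other let-7a genes differed by −0.04 (MIRLET7A1) and −0.21 log2 (MIRLET7A3).

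MIR29A and MIR29C have the same seed. MIR29A was at 2.59 in the control, under the floor, at 4.13 with CFX and at 4.26 with Mt-CFX. Here both compounds lay above the control. MIR29C, on another chromosome, was at 4.79, 4.81 and 5.18, while MIR29B1 and MIR29B2 were under the floor and equal in the control and with Mt-CFX. MIR21, an abundant microRNA of many tumours, was at 6.88, 6.46 and 7.67, so that CFX lay under the control and Mt-CFX above it. MIR3189, which lies in the intron of GDF15, was at 3.00, 3.79 and 4.31, with the first 2 of these arrays under the floor.

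**Figure D3:**
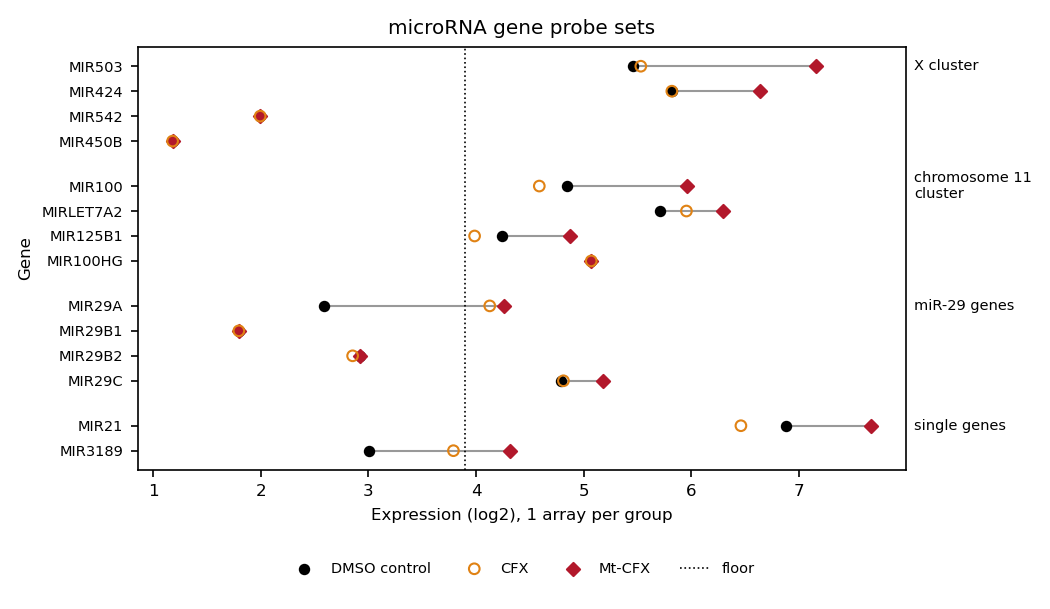
Levels (log2 expression, x axis) of microRNA gene probe sets and of MIR100HG, grouped by cluster or seed on the y axis; black points are the DMSO control array, open orange circles CFX and red diamonds Mt-CFX, 1 array per group, with the floor of 3.89 dotted. The CFX circles of MIR503 and MIR424 lie on or near the control, that of MIR29A lies near Mt-CFX, and the 3 points of MIR100HG coincide.

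The other higher microRNA genes were MIR325, MIR521-2, MIR1269A and MIR1206, each under the floor in the control, and MIR3620, MIR548AL, MIR3934, MIR548C, MIR5047, MIR4522 and MIR3671. MIR548AL and MIR548C belong to a large repeat-derived family whose probes may not tell copies apart. On the low side MIR924 was at 6.06 in the control, 6.02 with CFX and 4.71 with Mt-CFX. The others were MIR3621, MIR4454, MIR4740, MIR4468, MIR1294, MIR548AN, MIR3122 and MIR1587, and, with the Mt-CFX array under the floor, MIR4526, MIR550A1, MIR188, MIR544B and MIR4675. The other probe set of MIR1587 was equal on both arrays. Of 563 long non-coding RNA genes kept 364 were equal, 140 higher and 59 lower, and 1.42% were higher by 1.5-fold or more beside 1.57% of all genes. CRNDE was at 6.82, 7.16 and 7.93, LINC00963 was higher by 0.81 and LINC00622 by 0.59. NHSL1-AS1, UCA1 and LINC00173 were higher from control levels under the floor, and LINC00261 and LINC01085 were at −0.91 and −0.61 log2. VLDLR-AS1 was higher by 0.83, with 1.28 at its second probe set, from a control level of 3.81, under the floor.

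Lower genes with secreted products are given first. CCL2, a chemokine that attracts monocytes, was at 7.11 in the control, 6.70 with CFX and 3.76 with Mt-CFX, the last under the floor. CSF1, a growth factor for the same cells, was at 6.51, 6.38 and 5.67. CCL24 was at 4.48 in the control and 3.86, under the floor, with both compounds. Of 15 cytokine and chemokine genes kept 2 were higher, 7 lower and 6 equal, and 3 were lower by 1.5-fold or more beside 1.27% of all genes. LIF, at 0.37 log2, was the other higher gene beside GDF15.

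Of 33 growth factor and binding protein genes kept 21 were lower, 5 higher and 7 equal, with a median of −0.06 log2. Here 4 were lower by 1.5-fold or more, 12.1% beside 1.27% of all genes. Of 23 genes of the TGF-beta family and its antagonists 10 were lower, 3 higher and 10 equal, with a median of 0.00. Again 4 were lower by 1.5-fold or more, 17.4% beside 1.27% of all genes. IGFBP4, which holds insulin-like growth factors, was at 10.11 in the control, 9.96 with CFX and 8.82 with Mt-CFX. IGFBPL1 was at 6.74, 6.45 and 5.97, and IGFBP1 at 6.68, 6.68 and 6.05. Of the 7 genes of this family kept 6 were lower, 0 higher and 1 equal, with a median of −0.08 log2, so the size rested on these 3. FST, which encodes follistatin and neutralises activins, was at 6.46, 6.31 and 5.21, LTBP1, which stores latent TGF-beta in the matrix, at 7.71, 7.39 and 6.92, and BMP4, a ligand of the same superfamily, at 7.64, 7.64 and 7.03. BMP8B was at 5.05 in the control and 4.40 with both compounds. Among ligands, STC1 was at 6.34, 5.80 and 5.26, NRG1, a ligand of HER3 and HER4, was at −0.62 log2, EDN1, the endothelin precursor gene, at −0.66, the CCN family gene CCN3 at −0.89 and MST1 at −0.80. SPX, a peptide hormone gene, was higher by 1.16 from a control level of 3.84, under the floor.

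Matrix genes were lower in 21 of 39 kept, higher in 3 and equal in 15. At 1.5-fold or more 7 were lower, 17.9% beside 1.27% of all genes, and none was higher. The median was −0.02 and the mean −0.25 log2. CEMIP, which takes part in the breakdown of hyaluronan, was at 6.23 in the control, 5.94 with CFX and 4.31 with Mt-CFX, a 3.78-fold difference. HAS2, which makes hyaluronan, was at 6.68, 6.68 and 5.92. Synthesis and breakdown genes of the same polymer were thus both lower, and HYAL2, a hyaluronidase gene, was at −0.39. THBS1, the thrombospondin-1 gene, was at 9.52, 9.31 and 8.38, and FN1, the fibronectin gene, at 8.78, 8.52 and 8.05. SDC2, a heparan sulphate proteoglycan, was at −0.84, PXDN, which cross-links basement membrane collagen, at −0.96, and EFEMP1 at −0.63 log2. TIMP3, an inhibitor of matrix proteases, was at −1.13, with −0.27 at a dimmer probe set under the floor. Of 12 polypeptide GalNAc transferase genes kept, which start O-linked glycans, 7 were equal, 4 lower and 1 higher, with a median of 0.00. GALNT5, GALNT10 and GALNT2 were at −0.94, −0.83 and −0.48, and GALNT3 at 0.23. Single enzymes that modify matrix proteins were lower, the dermatan sulphate enzyme CHST14 at −0.72, the collagen galactosyltransferase COLGALT1 at −0.62 and the collagen prolyl hydroxylase P3H2 at −0.61.

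**Figure D4:**
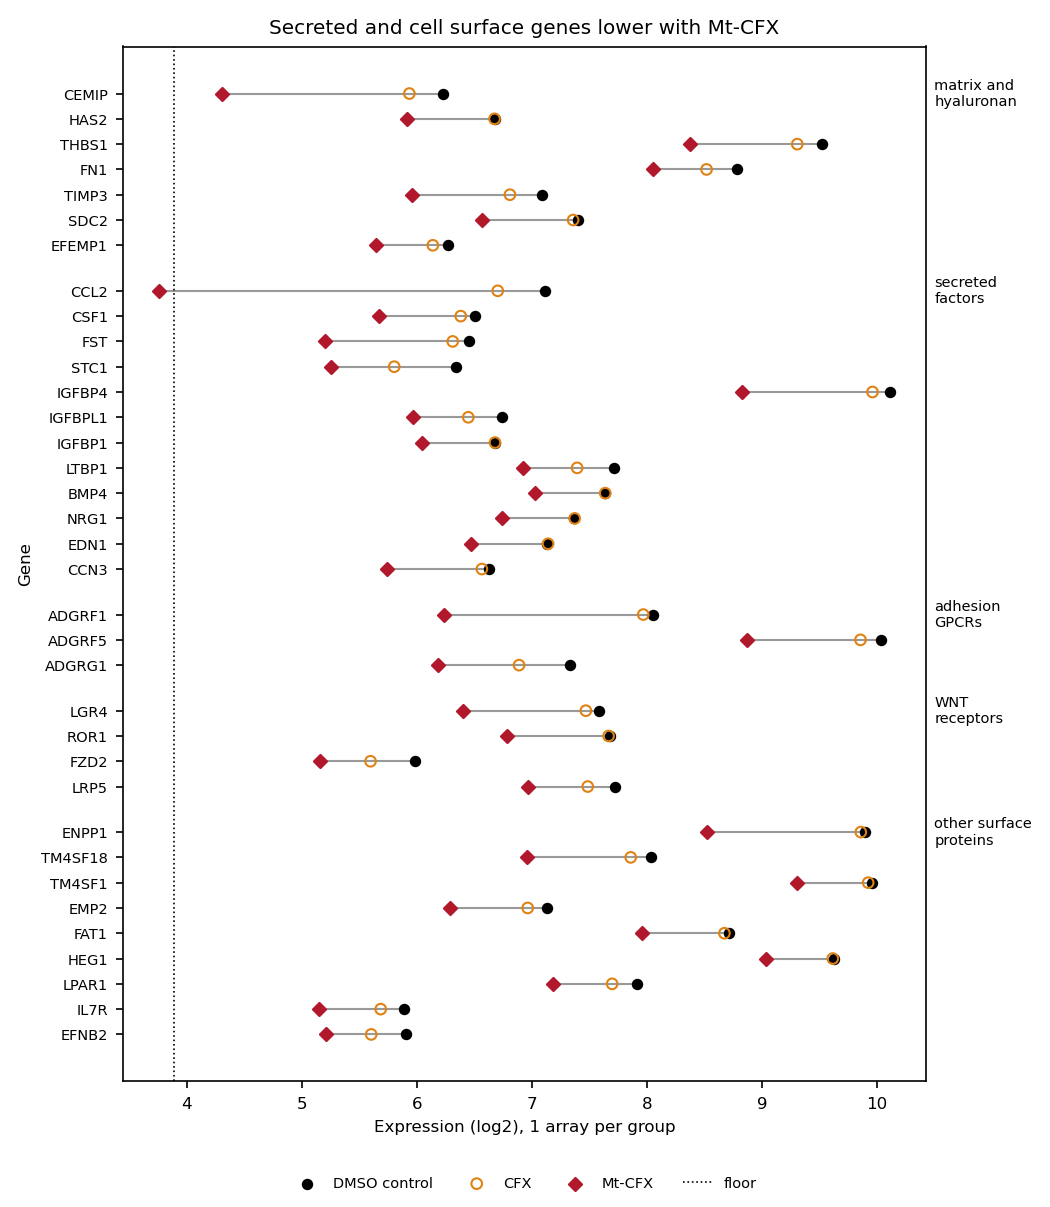
Levels (log2 expression, x axis) of secreted and cell surface genes 1.5-fold or more lower with Mt-CFX, grouped by role on the y axis; black points are the DMSO control array, open orange circles CFX and red diamonds Mt-CFX, 1 array per group, with the floor of 3.89 dotted. The red diamond is the leftmost point for every gene drawn, and CCL2 is the gene drawn that crosses the floor.

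Adhesion G protein-coupled receptors, which pair a long adhesive outer part with a signalling core, were lower in 9 of 13 kept and higher in 0, with a median of −0.16 log2. Over all genes kept, 2310 of 10126 were lower to any extent. By 1.5-fold or more 3 of the family were lower, 23.1% beside 1.27% of all genes. ADGRF1 was at 8.05 in the control, 7.97 with CFX and 6.24 with Mt-CFX, ADGRF5 at 10.04, 9.86 and 8.87, and ADGRG1 at 7.33, 6.89 and 6.19. The other lower members, such as ADGRA3 at −0.31 and ADGRG6 at −0.30, differed by much less. Receptors for WNT ligands were lower in 9 of 16, higher in 1 and equal in 6, with a median of −0.15. By 1.5-fold or more 4 were lower, 25% beside 1.27% of all genes. LGR4, the R-spondin receptor, was at 7.58, 7.47 and 6.40, ROR1 at 7.68, 7.67 and 6.79, FZD2 at 5.98, 5.60 and 5.16, and the co-receptor LRP5 at 7.72, 7.49 and 6.97. FZD1 was at −0.48 and LRP6 at −0.35, and the secreted antagonist DKK1 was at −0.48 and SHISA3, another antagonist, at −0.88. Of 28 genes of the WNT, NOTCH and hedgehog list kept 9 were lower, 4 higher and 15 equal, with a median of 0.00. The receptor families were chosen after values were seen.

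Other membrane genes were lower one by one. ENPP1, an ectoenzyme that cleaves nucleotides, was at 9.90 in the control, 9.86 with CFX and 8.52 with Mt-CFX. The tetraspan-like genes TM4SF18 and TM4SF1 were at −1.08 and −0.65 log2, and EMP2 at −0.84, with −0.17 at its other probe set. The protocadherin FAT1 was at −0.75, HEG1 at −0.59, the ephrin ligand EFNB2 at −0.70 (5 of 13 ephrin and Eph receptor genes were lower and 2 higher), the interleukin receptor IL7R at −0.74 and EMB at −0.61. LPAR1, a receptor for lysophosphatidic acid, was at −0.73 and 0.00 at its other probe set. Inside the membrane, CAVIN2, a coat protein of caveolae, was at 9.50, 9.51 and 8.24, whereas CAVIN1 differed by −0.21. Of 26 genes of caveolae and the actin cytoskeleton kept 9 were higher, 9 lower and 8 equal, with a median of 0.00. CAVIN2 alone reached 1.5-fold, 3.85% beside 1.27% of all genes lower by that size. VCL, and outside the list NEXN, NET1 and TNS4, which act at the actin cytoskeleton and focal adhesions, were at −0.54, −0.66, −0.79 and −0.74. UNC5B, a netrin receptor, went the other way, from 5.06 on both other arrays to 6.04.

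Prostaglandin genes were split. PTGS2, the inducible cyclooxygenase, was at 5.03 in the control, 4.39 with CFX and 5.98 with Mt-CFX, so the compounds lay on opposite sides of the control. PTGES, the next enzyme on the way to prostaglandin E2, was at 5.72, 5.47 and 5.09, and PTGER4, a receptor for it, at 5.51, 5.48 and 4.90. Of the 14 genes of this group kept 4 were higher, 4 lower and 6 equal, in a group chosen after values were seen.

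Several lipid synthesis genes were lower. FASN, the fatty acid synthase, was at 7.72 in the control, 7.44 with CFX and 6.62 with Mt-CFX, and ACACA, which makes its substrate, at 7.74, 7.69 and 7.08. ACSL5, which activates fatty acids, was at −0.61 log2. Of 21 genes of fatty acid synthesis and desaturation kept 10 were lower, 2 higher and 9 equal, with a median of 0.00. Lower by 1.5-fold or more were 3, 14.3% beside 1.27% of all genes. LPCAT1, which rebuilds phosphatidylcholine from its lyso form, was at 8.435, 8.004 and 7.073, and its relatives LPCAT2 and LPCAT3 were at −0.48 and −0.47. PLPP3, a lipid phosphatase, was at −0.84. Of 26 genes of phospholipid and triglyceride metabolism kept 8 were lower, 4 higher and 14 equal, with a median of 0.00. Of 21 genes of cholesterol synthesis and uptake 15 were lower, 0 higher and 6 equal, with a median of −0.15; HSD17B7 was at −0.75, INSIG1 at −0.65 and, outside the list, TMEM97, a sterol-regulated membrane protein, at −0.89. Of 12 fatty acid oxidation genes kept 0 reached 1.5-fold, beside 2.84% of all genes, with CPT1A at −0.38 and ECI1 at 0.36.

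Some genes known from epithelial differentiation were lower, chosen after values were seen. SPDEF, an ETS factor of secretory epithelium, was at 6.33 in the control, 6.01 with CFX and 5.03 with Mt-CFX. SOX9 was at −0.66 log2, the envelope gene EVPL at −0.78, the keratin gene KRT80 at −0.66, and FOXQ1 at −0.60. AGR2 was at 4.25 in the control and 3.65 with Mt-CFX, under the floor. The 8 named epithelial and luminal markers used to check the cell line were not lower together, with a sum of 42.2 in the control and 42.6 with Mt-CFX. Among them KRT8, KRT18, GATA3, FOXA1 and GRHL2 were equal, EPCAM was at −0.26 and KRT19 at −0.18, and ESRP1, under the floor on both arrays, was higher by 0.78.

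Genes of DNA replication were lower as a group. As background, E2F factors switch them on together as cells enter S phase, and a complex at the cell cycle homology region controls the later genes of mitosis. Of 42 G1/S and replication genes kept 35 were lower, 1 higher and 6 equal, with a median of −0.30 log2. Lower by 1.5-fold or more were 7, 16.7% beside 1.27% of all genes. UHRF1, which guides maintenance DNA methylation, was at 8.28 in the control, 8.07 with CFX and 7.09 with Mt-CFX. FEN1, a flap nuclease, was at 7.20, 6.98 and 6.06, and GINS2, of the replicative helicase, at 6.36, 6.35 and 5.47. CCNE2, UNG, E2F8 and CDC25A were at −0.64, −0.62, −0.61 and −0.59. Of 62 G2/M and mitosis genes 46 were lower, 2 higher and 14 equal, with a smaller median of −0.16. Only MKI67, at 9.73 on both other arrays and 9.13 with Mt-CFX, was lower by 1.5-fold or more, 1.61% beside 1.27% of all genes. SKA1, a kinetochore gene, was the highest at 0.43. In nucleotide synthesis TYMS was at −0.51 against RRM2B at 0.53, and BRIP1, a repair helicase, was at −0.59.

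The E2F element, searched as TTTNNCGC on both strands in the same promoter windows, was found in 12.5% of the 7341 genes and in 23 of 33 G1/S genes with a promoter, 69.7%. Of these 23 genes 22 were lower and 1 was higher, with a median of −0.31 log2, and of the 10 without a match 6 were lower, with a median of −0.14. The cell cycle homology region, searched as TTTGAA, was found in 13.5% of all and in 37 of 54 G2/M genes, 68.5%. Of these 37 genes 28 were lower, with a median of −0.16 log2, and of the 17 without a match 11 were lower, with a median of −0.10. The homology region overlapped no E2F match. E2F matches overlapped a CCAAT box match in 7 genes, an antioxidant response element in 5 and a CArG box in 1. The CCAAT box itself (CCAAT, either strand) was found in 42.9% of all 7341 genes, in 41.7% of the higher and 50.6% of the lower genes, and the antioxidant response element (TGACNNNGC) in 18.6%, 14.8% and 20.2%. The windows show 3 of the lower G1/S genes and MKI67, with the matches in capitals.

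UHRF1, E2F, chr19:4909467-4909500, plus strand: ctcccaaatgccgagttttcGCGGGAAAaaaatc

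GINS2, E2F, chr16:85688958-85689005, minus strand: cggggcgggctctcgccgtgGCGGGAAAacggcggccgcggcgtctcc

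CDC25A, E2F, chr3:48188434-48188481, minus strand: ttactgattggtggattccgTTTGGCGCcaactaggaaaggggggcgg

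MKI67, cell cycle homology region, chr10:128126427-128126472, minus strand: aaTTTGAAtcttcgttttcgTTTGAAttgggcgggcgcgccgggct

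The matches shown for UHRF1 and GINS2 have the same 8 letters and begin 14 and 31 bases before the start site. UHRF1 holds 2 more E2F matches that are not shown, 112 bases before this start site and 160 before another. MKI67 holds 2 matches of its element, both shown. E2F matches were found in 12.4% of all matched genes 1.5-fold or more lower and in 17.6% of those 1.5-fold or more higher. The cell cycle homology region was found in 22.5% of the lower and 19.4% of the higher genes.

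**Figure D5:**
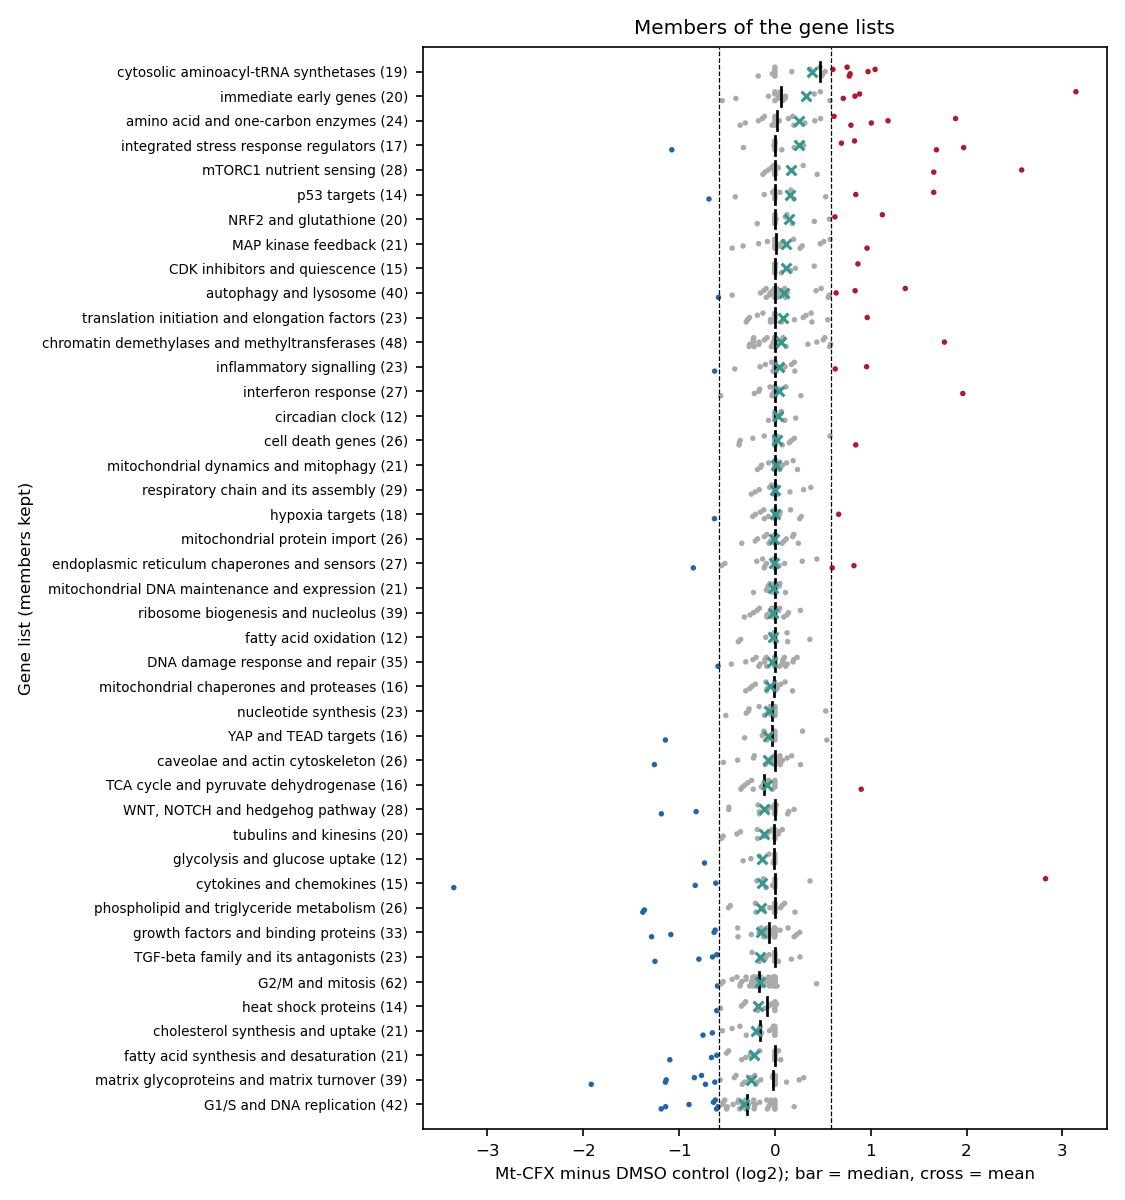
Each point is a gene of the list named on the y axis (number of members kept in brackets), with Mt-CFX minus DMSO control (log2) on the x axis; bars are medians, crosses means, dashed lines mark 1.5-fold, and red and blue points lie at or beyond it. Lists with 10 or more members are ordered by mean, from the aminoacyl-tRNA synthetases at 0.38 to the G1/S and replication genes at −0.32, and the mitochondrial lists of the respiratory chain, import, DNA maintenance, dynamics and chaperones hold no coloured point.

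Protein folding genes of the endoplasmic reticulum went both ways. CALR, a calcium-binding chaperone, was at 11.07 in the control, 10.88 with CFX and 10.22 with Mt-CFX, and MANF and SDF2L1 were at −0.56 and −0.52 log2. XBP1, the transcription factor of the unfolded protein response, was at 7.16, 7.23 and 7.99, its activating sensor ERN1 was higher by 0.60 and the degradation adaptor SEL1L by 0.44. Of 27 genes kept 6 were higher, 11 lower and 10 equal. In the secretory route, SEL1L3 was at 6.16, 6.26 and 7.55, the Golgi gene COG5 was higher by 0.92, and the SNARE gene BET1 by 0.97 from a control level under the floor. Of 14 heat shock genes 9 were lower, 1 higher and 4 equal; HSPA1B was at −0.61 and between −0.54 and −0.70 at its other probe sets, and its near-identical copy HSPA1A may share its probes. LDHA, lactate dehydrogenase, was at −0.73. EIF1B and EIF1, which help select the start codon, were higher by 0.96 and 0.55.

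No gene of 5 mitochondrial lists differed by 1.5-fold or more, beside 2.84% of all genes kept. With 16 to 29 members kept in each, a count of 0 in any 1 list lies close to that share. In a further list, of the TCA cycle and pyruvate dehydrogenase, 11 of 16 kept were lower, 1 higher and 4 equal. Its median was −0.12 log2, and its higher gene was PCK2, at 0.90. The respiratory chain list had 29 members kept, with a median of 0.00, 4 higher, 7 lower and 18 equal, from CYC1 at −0.25 to COX7A2L at 0.37 log2. Import (26 members), DNA maintenance and expression (21) and dynamics and mitophagy (21) had medians of 0.00, and chaperones and proteases (16) one of −0.01. The proteases SPG7 and AFG3L2 of the inner membrane were at −0.30 and −0.26, and the chaperone HSPA9 at 0.18. The topoisomerase genes, 5 kept, lay between TOP2A at −0.30 and TOP2B at 0.06.

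The remaining genes of 2-fold or more had no common role. ANKFN1 was at 4.31 in the control, 4.62 with CFX and 6.18 with Mt-CFX, and STK32A, a kinase gene, at 4.76, 4.64 and 6.17. TMEM154 was at 5.34, 5.34 and 6.58, the sorting adaptor TOM1L1 at 8.44, 8.69 and 9.66, and PXK at 7.18, 7.56 and 8.33. On the low side SERTAD4 was at 5.94, 5.95 and 4.80, KLHL4 at 6.60, 6.59 and 5.55, and LMO3 at 6.11, 6.11 and 5.07. TTC9, SPAG11A and WFDC10B, between 1.5-fold and 2-fold, were lower to Mt-CFX levels under the floor. Smaller differences of structural genes included CEP120 and CEP70 of the centrosome at 0.74 and 0.72 log2, TULP3 of the cilium at 0.75, CLIC4 at 0.63 and TES at 0.83. KLHDC7B and WNK4 were higher from control levels under the floor.

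The other genes between 1.5-fold and 2-fold are named here for completeness. Higher by 0.75 to 0.98 log2 were TMEM267, CUTALP, TCP11L2, LURAP1L, GDPD1, ARHGAP40, TMEM268, the tRNA splicing endonuclease subunit TSEN15, MORN4, the readthrough transcript DNAAF4-CCPG1, RSL24D1, OGFRL1 and BEND7. BEND7 was at 5.50 in the control, 6.13 with CFX and 6.25 with Mt-CFX, so that CFX lay close to Mt-CFX. ARHGAP40 was higher by 0.90, with 0.56 at a second probe set. Signalling genes among the smaller differences were the arrestin-domain gene ARRDC3 (0.72), IFRD1 (0.70), the RhoGAP gene DLC1 (0.68), DOCK3 (0.67), TRAF1 (0.63), RIOK3 (0.62) and the NOD signalling kinase RIPK2 (0.62). RNA-binding and nuclear genes were YBX3, CAPRIN2, NCOA7, PROSER1, WDR5B, TXNL4B and ZFP69B. Membrane, transport and lipid genes were BLTP3A, OSBPL6, CHMP1B, CHIC2 and ORMDL1. Enzyme genes were ABHD4, CA13, EXTL2, PTER and DESI2, and the rest were ASB1, ANKRD29, CCDC122, CFAP263, C11orf54, YPEL5, EBLN3P and the copy-rich genes NPIPA1, LCE2D and STAG3L1, whose probes may read related copies.

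On the low side SYNJ2, a phosphoinositide phosphatase, was at 8.09 in the control, 7.99 with CFX and 7.24 with Mt-CFX, and SECTM1 was at 6.02, 5.95 and 5.21. PEG10 was at 8.26, 8.40 and 7.55, with CFX above the control. Enzyme genes were the carbonic anhydrase CA12 (−0.63), GAMT (−0.64), which makes creatine, ACSM5 (−0.68), DHRS13 (−0.61), FOXRED2 (−0.61), the kinase CDK15 (−0.73) and LFNG (−0.69), which adds sugars to NOTCH receptors. Scaffold and nuclear genes were AHNAK2 (−0.65), MTCL1 (−0.65), JCAD (−0.64), GEMIN4 (−0.64), PRDM10 (−0.68), TRERF1 (−0.60) and the adaptor SHC3 (−0.59). TMEM51, TMEM236, FRG1, which has many related copies, and the pseudogenes SKP1P2 and HAVCR1P1 completed the lower genes.

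Both compounds were set against the same control array, so their values are given side by side only. FBXO32, with 4.75 in the control, 4.37 with CFX and 5.39 with Mt-CFX, was a further gene with the compounds on opposite sides of the control. The limit of 1.5-fold fell between MIRLET7A2 at 0.5863 and EPB41L4A-AS1 at 0.5845 log2 on the high side and between MIR1587 at −0.5873 and RACGAP1 at −0.5847 on the low side. The floor fell between MAP10 and FGF7P6, whose highest arrays were at 3.8935 and 3.8925.

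Different probe sets of a gene are the one internal check on these sizes. Of the genes kept, 592 had further probe sets, and 692 of these probe sets were above the floor. Over these 692 comparisons, the difference at the probe set used and at the other one differed with an SD of 0.18 log2. Of the 21 genes of 1.5-fold or more with other probe sets, 13 had all of them in the same direction. EGR1, HSPA1B and VLDLR-AS1 reached 1.5-fold at another probe set. MIR4454, also among the 13, did so too, but its other probe sets had the same values as the one used. They are therefore no separate check. The other probe sets of EGR1 and VLDLR-AS1 were under the floor in the control, at 3.53 and 3.81, so their sizes are uncertain. Some of the other HSPA1B probe sets had the same Mt-CFX value, 8.17. WARS1, TRIB2, LPAR1, DISP2, FOXD4L6, MIR1587, HINT3 and LINC00173 were equal on both arrays at their other probe sets. In HINT3 and LINC00173 the other probe sets were under the floor.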

How the data were processed

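RNA of MDA-MB-231 cells was measured on whole-transcript GeneChip arrays, 1 array for each of 3 groups, with Trizol extraction and biotin-labelled sense cDNA, per the labels' protocols. The authors' deposited values are log2 expression per probe set, which the submitters' processing notes credit to RMA and Affymetrix Expression Console; versions and the annotation build are not given in the sources used here. RMA fits probes across arrays, which can leave values exactly equal, and evens out array distributions, so a difference in total RNA is not visible.

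Of 53617 probe sets, 16098 were named by the platform annotation, all matched by gene ID. For each gene the probe set with the highest mean of the 3 arrays was taken, a floor was set at the median of all values, and Mt-CFX minus control was computed. Genes were counted at 1.5-fold, with 2-fold as an alternative. With 1 array a side there is no test and no replicate error, and the number of arrays limits the precision. Named genes were the 1.5-fold genes, with up to 4 further members of a list, mostly by size, and fixed cell markers. A few genes, such as EIF2AK1, were named for their role whatever their size. The counting code was run on simulated data with small noise, which checks the code and not the counts found here. Members, the 48 lists, the 16 families and the elements searched were chosen with earlier results of these data known. Lists with 5 or more members kept were described by counts, median and mean. The list of collagens, integrins and laminins had 0 named members and amino acid transporters 1, so they were not analysed here. Promoters and mature microRNAs came from RefSeq (GRCh38.p14); 395 of 425 microRNA genes matched. Python 3.11.15, numpy 2.4.6, pandas 2.3.3, statsmodels 0.14.6 and matplotlib 3.10.9 were used.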

Additional observations from a re-analysis of the deposited data

Results flagged for a closer look

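The probe sets with no gene name here entered no comparison of genes. Of 16805 at the floor or above, 214 were 2-fold or more higher with Mt-CFX than in the control and 263 were 2-fold or more lower. At 1.5-fold or more 8.46% differed, against 2.84% of the named genes, and the differences ran from −4.04 to 3.55 log2. What these probe sets measure is not known here.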

How the results depend on the processing

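At 2-fold in place of 1.5-fold the counts were 37 higher and 26 lower. Under the other 8 alternatives the counts stayed within 1.5 times of 159 and 129. They ran from 127 higher and 96 lower with a floor at the 75th percentile of all values to 188 and 152 with no floor. The lowess curve was flat, with a largest shift of 3.61e-07 log2, so re-centring could move no gene and says nothing about stability. With all probe sets of a gene averaged, 151 of the 159 higher and 122 of the 129 lower genes remained past 1.5-fold. That setting can move only genes with several probe sets, which are 21 of the 288. The mean of 5 of these fell under the floor. Of the other 16, 11 moved by more than 0.18 log2, the SD between probe sets of a gene. Among them were EGR1, to 2.39, WARS1, to 0.52, NAMPT, to 0.58, and TIMP3, to −0.70. TRIB2 moved to −0.54, LPAR1 to −0.36 and EMP2 to −0.50. No gene of 1.5-fold or more changed sign, but none could. The floor settings leave each difference as it was, and no other probe set of these genes went the opposite way. Of 46 lists, the median of 1 moved by more than that SD, that of fatty acid synthesis and desaturation, to −0.28 with the floor at the 75th percentile. No paired analysis was possible because each group is 1 array, and no replicate could be left out for the same reason. Signal near the floor limits the 25 genes with 1 array under it.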
